A study of Tribolium castaneum with 16 samples.

Results

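The subject here is a set of open chromatin regions of the red flour beetle Tribolium castaneum that were called in larval epidermis of the thoracic segment T3, which bears the hindwing, and not of T2, the thoracic segment before it. The peaks of 14 deposited lists were merged wherever they overlapped by at least 1 bp, and 45389 merged regions lay on the assembled linkage groups. A region was a member when it held a peak in all 3 T3 lists and in none of the 3 T2 lists, whatever the other lists showed. There were 484 members, which is 1.07% of all merged regions and 3.76% of the 12865 regions with a peak in all 3 T3 lists. Members were thus chosen by their calls in the T2 and T3 lists, that is, by peaks that passed the authors' q-value threshold. Every T2 and T3 value of a member below is therefore a description and carries no test.

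The study measured open chromatin by FAIRE-seq, a method that shears fixed chromatin and recovers the nucleosome-poor DNA by extraction with phenol and chloroform. Epidermis came from last-instar larvae of the strain pu11, an enhancer-trap line by whose activity the larvae were chosen. T2 samples held the elytron disc with the lateral epidermis around it and T3 samples the hindwing disc with its lateral epidermis, 3 samples each. The other lists came from brain of pu11 larvae of the same instar, named CNS in the sample titles (2 samples), and from whole embryos of the Georgia I strain, collected in 3 windows after egg laying with 2 samples each: 0 to 24 h, then 24 to 48 h, then 48 to 72 h. Fixation lasted 20 minutes for CNS and 30 minutes for the other tissues, and embryo libraries had barcodes of 5 nt, CNS libraries of 6 nt and epidermis libraries of 8 nt. The labels do not say whether replicates came from separate animals, so the p-values below measure only the spread between these samples. Whether the dissected tissue matched its label could not be checked against marker genes, because no gene annotation of the genome build of the lists was at hand. For the same reason no gene is named and no sequence is printed.

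As background, nucleosome-poor DNA marks regulatory elements such as promoters and enhancers, where transcription factors bind. In beetles T2 carries the elytron, a hardened forewing that covers the body, and T3 carries the membranous hindwing used in flight. The Hox gene Ultrabithorax sets the identity of T3 in insects, and when it is knocked down in Tribolium the hindwing takes on features of an elytron. The comparison of T2 with T3 epidermis therefore addresses whether serially homologous wings of different form also differ in open chromatin.

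Regions called in both segments were far more frequent than members. Of the regions in all 3 T3 lists, 6727 were also called in all 3 T2 lists, 4564 in 2 and 1090 in 1. The opposite class, with a peak in all 3 T2 lists and no T3 list, held 1 region (0.0022% of all regions). It spanned 237 bp on ChLG3 from 35758458 to 35758694, had folds of 3.92, 3.01 and 4.46 in T2 replicates 1, 2 and 3, and was in no embryo or CNS list. The fold is the authors' own value for each peak, the signal at the summit divided by the local background of the peak caller.

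The T3 lists were longer and deeper than the T2 lists. T2 replicates 1, 2 and 3 held 9725, 20616 and 20670 peaks, and T3 replicates 1, 2 and 3 held 22403, 22046 and 24689. The background depth, the mean read pileup that chance would give at a base, recovered here from the fold and p-value of the peaks, was 1.96, 3.78 and 3.59 in T2 and 4.16, 4.21 and 5.77 in T3. The T3 lists lay above all T2 lists, with means of 4.71 ± 0.913 and 3.11 ± 1.0 (SD, n = 3 each) and a difference of 1.6. The exact two-sided permutation p was 0.1, the smallest that 3 lists against 3 allow. Depth and segment cannot be told apart by this design, and the 2 genomic input libraries in the labels were not analysed here. In dissected tissue, fewer cells with an open site and less opening per cell cannot be told apart either.

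Members were weak T3 peaks. Their median fold was 3.74, 3.36 and 3.12 in T3 replicates 1, 2 and 3 (mean 3.41 ± 0.312, SD, n = 3), against 4.36, 4.10 and 3.8 for all peaks of the same lists on linkage groups. Within the lists the median member stood at the 36.1, 28.3 and 28 percentile of fold. Their folds ranged from 2.05 to 7.17 in replicate 1, from 2.12 to 6.39 in replicate 2 and from 1.78 to 5.90 in replicate 3. The smallest of the 3 T3 folds had a median of 2.92 over members, of 4.11 over the 12381 regions in all 3 T3 lists and at least 1 T2 list, and of 5.16 over the regions in all 6 epidermis lists. A smallest T3 fold of 4 or more was found in 21 members (4.34%) and in 52.7% of the regions shared with T2. A smallest T3 fold of 5 or more was found in 2 members and in 32.8% of the shared regions.

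Most members nevertheless lay some way inside the calling threshold of the T3 lists. The lists were cut at a q-value of 0.05, and their lowest −log10 q was 1.32, 1.3 and 1.31 in T3 replicates 1, 2 and 3. The median −log10 q of members was 7.17, 5.46 and 6.17, and their lowest value was 1.68, 1.53 and 1.38. Taking each member at its weakest T3 peak, the median −log10 q was 4.43, against 11.7 for the regions shared with T2 and 21.5 for the regions in all 6 lists. The weakest T3 peak had a −log10 q under 2 in 9 members (1.86%) and under 3 in 70 (14.5%, against 3.54% of the shared regions). No member had a value of 15 or more, while 41.2% of the shared regions did.

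**Figure D1:**
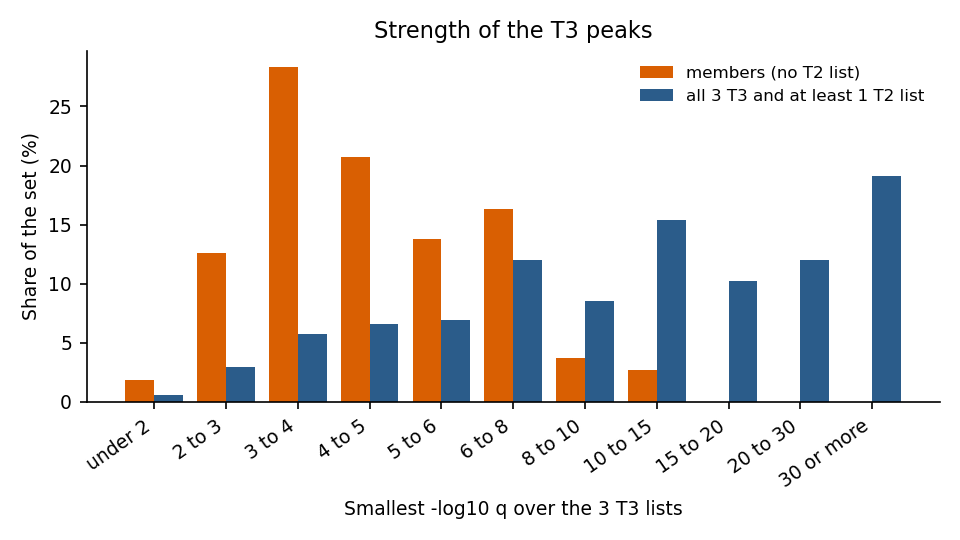
Share of the 484 members (orange) and of the 12381 regions in all 3 T3 lists and at least 1 T2 list (blue), in percent, by the smallest −log10 q of a region over the 3 T3 lists. Members peak between 3 and 4, where 28.3% of them lie, and none reaches 15.

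Members were most frequent among small T3 peaks. Among regions in all 3 T3 lists whose smallest T3 fold was under 2.5, 9.55% had no T2 peak (88 of 921), and between 2.5 and 3 the share was 11.3% (196 of 1731). It was 6.17% between 3 and 3.5, 3.37% between 3.5 and 4 and 0.767% between 4 and 5. Between 5 and 6 it was 0.122% (2 of 1638), and of the 2427 regions with a smallest fold of 6 or more none lacked a T2 peak. Regions with a peak in 1 T2 list made up 21.9% of the lowest class, and 1 region of the highest. These shares describe the calls that defined the set.

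**Figure D2:**
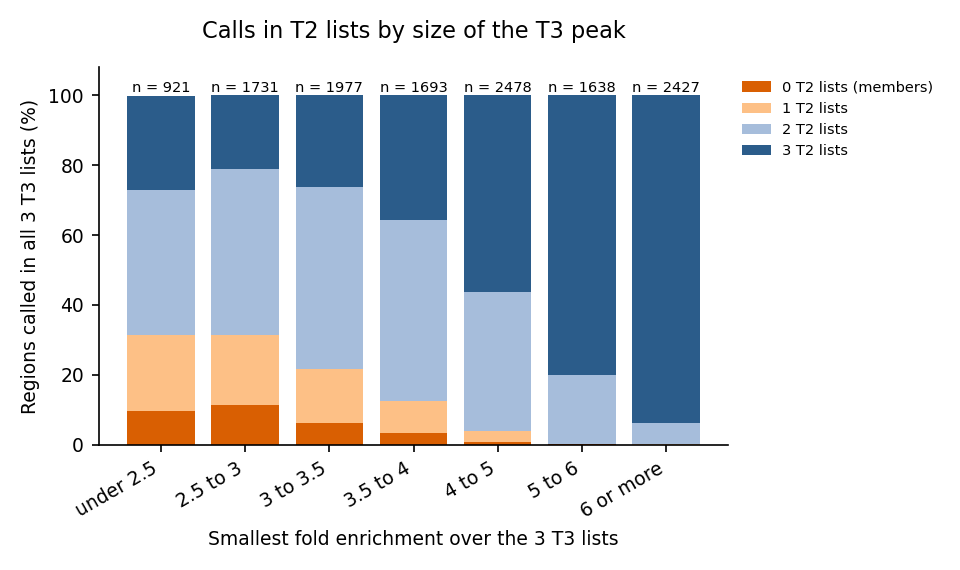
Regions in all 3 T3 lists, in classes of their smallest fold over the 3 T3 lists (x axis), divided by the number of T2 lists with a peak (y axis, percent of the class; n is the number of regions). The share with no T2 peak, the members, is 11.3% between folds of 2.5 and 3 and 0 at folds of 6 or more.

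How near members came to the T2 threshold was estimated by scaling the pileup and background of their T3 peaks to the depth of each T2 list and computing the −log10 p such a peak would have. The T2 lists give no value where no peak was called, so the T2 level of a member is unknown. At the depth of T2 replicate 1 the median member would have had a −log10 p of 4.29, and 375 of the 484 members fell under 5.15, the 5th percentile of that list. At the depths of T2 replicates 2 and 3 the medians were 7.06 and 6.77, where 51 and 46 members fell under the 5th percentile of the list (4.98 and 4.75). The lowest −log10 p actually in the lists was 3.15, 2.80 and 2.80, and 49, 0 and 0 members would have fallen under it. At the depth of T2 replicate 1 most members thus fell where that list held few peaks, while at the depths of the other T2 lists most did not. The rule required these T3 peaks to pass in all 3 T3 lists and in no T2 list, which tilts the expected values upward. The 5th percentile describes called peaks and is no calling limit. Why the T2 peaks were missing was not tested.

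The T2 lists did not call every region that this scaling placed above their lowest value. In T2 replicate 2, 53.2% of the regions in all 3 T3 lists with an expected −log10 p between 4 and 5 were called, 65.3% between 5 and 6, 73.7% between 6 and 8, 84.6% between 8 and 10 and 98.1% at 10 or more. Of the members, 60 lay in the last class for T2 replicate 2 and 42 for T2 replicate 3, where 98.3% of all such regions were called. In T2 replicate 1 the share called was 7.32% under 4 and 89.4% at 10 or more, and no member reached 10. Relative local background, the second quantity in the scaling, could be compared only over the 6727 regions in all 6 lists, which include no member. There it was alike in both segments, with a median T2 to T3 ratio of 1.0 in each T2 replicate. From the 5th to the 95th percentile it ran from 0.80 to 1.21 in replicate 1, from 0.842 to 1.2 in replicate 2 and from 0.835 to 1.2 in replicate 3.

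Regions just outside the set were of 2 kinds. Of the regions in all 3 T3 lists, 1090 missed membership through a peak in 1 T2 list, and that list was replicate 1 in 17 cases, replicate 2 in 549 and replicate 3 in 524. These T2 peaks had a median fold of 3.82 in replicate 1, 3.49 in replicate 2 and 3.51 in replicate 3. A further 1416 regions (3.12% of all regions) had no T2 peak but a peak in 2 of 3 T3 lists, the missing list being replicate 1 in 522, replicate 2 in 471 and replicate 3 in 423. The nearest miss was on ChLG4 from 3740258 to 3740764, where T3 folds of 2.34, 2.63 and 3.15 stood beside a peak in T2 replicate 3 with a fold of 1.93 and a −log10 q of 1.51. Another lay on ChLG3 from 11608459 to 11608760, with T3 folds of 2.43, 1.60 and 1.98 and a fold of 1.69 in T2 replicate 2 (−log10 q 1.57).

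The member nearest the T3 threshold was on ChLG3 from 14981216 to 14981586, with folds of 3.02, 3.16 and 1.88 and −log10 q values of 3.79, 5.12 and 1.38 in T3 replicates 1, 2 and 3. It entered the set through a T3 replicate 3 peak that barely passed. A member on ChLG3 from 17341884 to 17342113 combined folds of 5.37 and 6.33 in T3 replicates 1 and 2 with 1.97 in replicate 3 (−log10 q 1.64). Here T3 replicate 3 stood far below the other T3 lists. The other 3 members nearest the threshold were on ChLG2 from 1492033 to 1492960, on ChLG8 from 10053681 to 10053858 and on ChLG7 from 10573912 to 10574421, with a smallest −log10 q of 1.53, 1.68 and 1.83.

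The 10 strongest members were ranked by their smallest T3 fold. The first, 330 bp long, spanned 10483719 to 10484048 on ChLG6. In T3 replicates 1, 2 and 3 its folds were 5.24, 6.39 and 5.90, with −log10 q values of 11.8, 17.4 and 18.9. It was called in none of the other 11 lists. At its background, a peak of fold 2.87, 2.34 and 2.44 would have reached the lowest p-value of T2 replicates 1, 2 and 3. A peak with any of its T3 folds would thus have been callable in each T2 list by p-value alone. The second was on ChLG5 from 7447293 to 7447588, with T3 folds of 6.11, 5.18 and 5.02 and a fold of 3.40 in CNS replicate 1.

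The other 8 of the 10 strongest were of several kinds. One on ChLG6 from 9977206 to 9977724 had T3 folds of 5.23, 5.19 and 4.73 and was higher in early embryos, with folds of 13.8 and 14.5 at 0 to 24 h. One on ChLG1 from 2575746 to 2576408 had T3 folds of 4.45, 6.15 and 4.88 and CNS folds of 10.2 and 12.3, and was called in 7 of the 8 embryo and CNS lists. One on ChLG3 from 28446623 to 28446826, with T3 folds of 5.62, 4.42 and 5.17, was also in 7 of them, with folds from 7.28 to 11. One on ChLG5 from 16482034 to 16482269, with T3 folds of 6.56, 4.72 and 5.20, was in both CNS lists at 5.91 and 5.40 and in no embryo list. Each of these 4 had a higher fold in at least 1 list outside the epidermis than in its weakest T3 list.

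Of the 4 that remain, 3 were in CNS replicate 1 and no further list, on ChLG7 from 20526284 to 20526483, on ChLG8 from 13695541 to 13695754 and on ChLG3 from 27017160 to 27017369. Their CNS folds were 2.95, 2.95 and 3.59, and their smallest T3 folds 4.42, 4.41 and 4.28. The last, on ChLG10 from 1276895 to 1277126, had T3 folds of 4.84, 4.61 and 4.43 and no peak elsewhere.

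Members in no other list numbered 82 (16.9%, against 11.7% of all regions and 5.39% of the regions shared with T2). The share of all regions is lowered by 20450 regions without an epidermis peak, which must be in an embryo or CNS list. Of the 1416 regions in 2 of 3 T3 lists and no T2 list, 34.5% were in no other list, above the members' share. The smallest T3 fold of the 82 members had a median of 2.95, close to that of all members, and their median width was 218 bp. Beside the regions on ChLG6 and ChLG10 named above, the strongest of them were 3 regions. One on ChLG7 from 20532721 to 20532854 had T3 folds of 5.62, 4.23 and 5.02. One on ChLG4 from 6893838 to 6894032 had 5.78, 4.97 and 4.22. One on ChLG9 from 15297150 to 15297468 had 6.07, 3.97 and 3.92. All 3 were highest in T3 replicate 1, the shallowest T3 list.

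Most members were called in another tissue as well. The calls in the embryo and CNS lists were not part of the rule, although their peaks helped to set the bounds of the merged regions. With members taken from the 6 epidermis lists merged alone, the difference tested below was 43.4 points in place of 42.4. CNS replicates 1 and 2 held a peak at 74.4% and 63.6% of members, against 69.4% and 63.9% of all regions. The 0 to 24 h lists held a peak at 40.5% and 48.6% of members, against 57.3% and 62.9% of all regions. At 24 to 48 h the shares were 19.0% and 24.0% of members against 30.3% and 36.7% of all regions, and at 48 to 72 h they were 18.0% and 9.71% against 29.2% and 18.1%. The members' share thus lay below that of all regions in all 6 embryo lists, above it in CNS replicate 1 and within 1 percentage point of it in CNS replicate 2. Of the regions shared with T2, 86.9% and 83.9% were in the CNS lists, 73.7% and 79.2% in the 0 to 24 h lists, 53.2% and 59.2% in the 24 to 48 h lists and 52.0% and 41.1% in the 48 to 72 h lists, above the members' share in each of the 8 lists. Counted over lists, 248 members were in at least 1 embryo list (51.2%, against 68.6% of all regions and 83.7% of shared regions). The 0 to 24 h lists both held 185 members (38.2%, against 54.0% and 72.6%), and the CNS lists both held 296 (61.2%, against 57.8% and 82.0%).

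The share of members called was higher in both CNS lists than in all 6 embryo lists. It averaged 69.0% ± 7.6 in CNS (SD, n = 2) and 26.6% ± 14.8 in embryos (SD, n = 6), a difference of 42.4 percentage points (exact two-sided permutation p = 0.0357, the smallest that 28 splits allow). With the replicate number as a block, the exact permutation p was 0.0625, the smallest possible. For all regions the same difference was 27.6 points, from 66.6% and 39.1% (exact permutation p = 0.107). For the regions shared with T2 it was 25.7 points (exact permutation p = 0.0714). The regions in all 3 T3 lists and 1 T2 list showed a like gap, which was not tested. Their shares were 79.3% and 72.6% in CNS and ran from 15.3% to 60.6% in embryos. Divided by the share of all regions in the same list, the members' share was 1.03 ± 0.0538 in CNS and 0.652 ± 0.0807 in embryos, a difference of 0.382 (exact permutation p = 0.0357, n = 2 and 6). Divided by the share of the regions shared with T2, it was 0.807 ± 0.069 and 0.418 ± 0.14, a difference of 0.389 (exact permutation p = 0.0357, n = 2 and 6). Without either CNS list the difference in share was 37.0 or 47.8 points at an exact permutation p of 0.143.

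Other properties of the lists moved with this comparison. The background depth was 9.85 and 5.91 in the CNS lists and 1.89 to 4.72 in the embryo lists. With all peaks scaled to the shallowest of the 14 lists, the difference was 35.5 points (exact permutation p = 0.0357, n = 2 and 6). This scaling kept every peak that reached the lowest −log10 p of the shallowest list, so it may correct depth only in part. After it the CNS lists still held 52.4% and 60.0% of all regions, against 30.3% in the shallowest list, 24 to 48 h replicate 1. With the lists cut to equal length it was 8.2 points, and with the best 50% of each list it was 25.7. For all regions the matching differences were 17.4 points after scaling, 2.28 at equal length and 15 in the best 50%. For the regions shared with T2 they were 21.1, 4.01 and 22.4 points, so in the best 50% members stood near the shared regions. At equal length the exact permutation p was 0.0357 for members, for all regions and for shared regions alike. Of the 28 splits of the lists, 24 break up replicate groups, so the p of 0.0357 treats replicates of a group as exchangeable. With groups kept whole there are 4 splits, and the exact permutation p was 0.25, the smallest possible. Strain, age, fixation time and barcode length changed together with tissue and cannot be told apart from it.

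**Figure D3:**
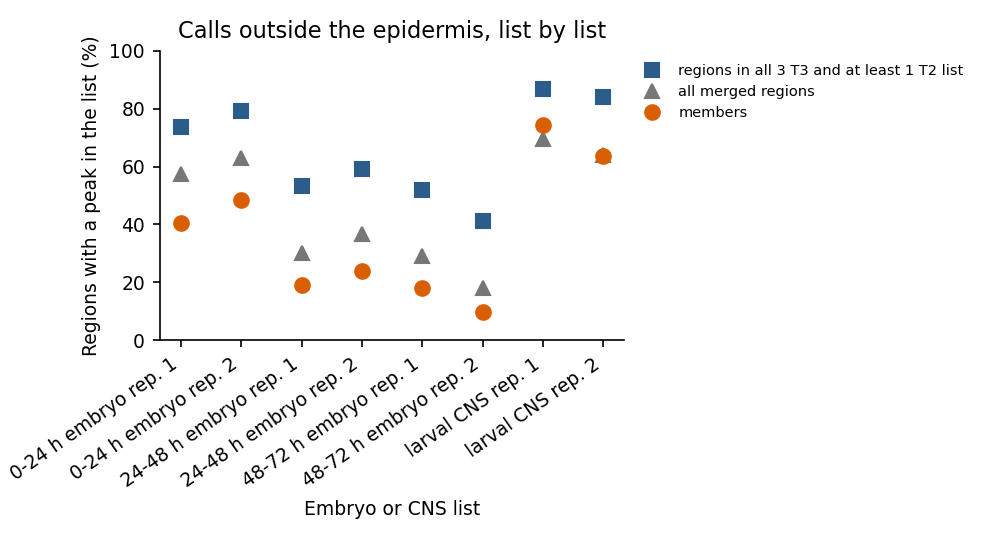
Percent of regions with a peak in each of the 6 embryo and 2 CNS lists (y axis), for members (orange circles), all merged regions (grey triangles) and regions in all 3 T3 and at least 1 T2 list (blue squares). Members lie between 9.71% and 48.6% in the embryo lists, below all regions in each, and at 74.4% and 63.6% in the CNS lists.

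By combination of lists, members divided into 4 kinds, the smallest of which were the 82 in no other list and the 30 in an embryo list and no CNS list (6.2%, against 12.8% of all regions and 5.79% of shared regions). Embryo and CNS lists together held 218 (45.0%, against 55.8% of all regions and 77.9% of shared regions), and 154 were in CNS and no embryo list (31.8%, against 19.7% and 11%). Of the 154, 98 were in both CNS lists (20.2% of members, against 9.42% of all regions and 7.92% of regions shared with T2). Only 36 members were in all 8 embryo and CNS lists (7.44%, against 13.8% of all regions and 33.6% of shared regions). Among regions in all 3 T3 lists the share in CNS and no embryo list was 31.8%, 25.0%, 13.7% and 6.84% for regions in 0, 1, 2 and 3 T2 lists, so members stood at the end of a series. The share in no other list ran the same way, from 16.9% through 12.3% and 7.76% to 2.66%. T3 peak size went with the same series, since regions in 1 T2 list had a median smallest T3 fold of 3.00, near the 2.92 of members, and those in all 6 lists 5.16. The part of peak size in these shares was not tested. The series holds only regions in all 3 T3 lists. Of the 1416 regions in 2 of 3 T3 lists and no T2 list, 19.2% were in CNS and no embryo list. That is below the 25.0% of regions in all 3 T3 lists and 1 T2 list. Of the 20450 regions without an epidermis peak, 28.6% were in CNS and no embryo list, near the members' share.

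Where members were called in another tissue, their peaks there were often higher than in T3. Folds of members had a median of 4.05 and 4.77 in the CNS lists and of 6.01 and 5.92 in the 0 to 24 h lists, which stood at the 54.1, 49.2, 51.9 and 52.6 percentile of those lists. Of the 296 members in both CNS lists, 155 (52.4%) had both CNS folds above their highest T3 fold, against 32.8% of the shared regions. Ranked by percentile within each list, 160 of the 296 (54.1%) stood higher in both CNS lists than in all 3 T3 lists, against 30.1% of the shared regions. Of the 185 members in both 0 to 24 h lists, 152 (82.2%) had both folds above their highest T3 fold, against 64.1% of the shared regions, and 103 (55.7%, against 33.5%) stood higher by percentile. Members had low T3 folds by the way they were chosen, so these shares are descriptions. The summits lay close together. The CNS summit was a median of 23.2 bp from the middle T3 summit over the 296 members, and 20.0 bp over the shared regions.

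Single members show how far this went. These 5 were chosen after their values were seen, as the members with the highest folds in CNS or at 0 to 24 h. The member with the highest CNS peaks, on ChLG5 from 13037396 to 13037842, had folds of 20.5 and 26.6 in CNS and of 3.49, 3.27 and 2.36 in T3 replicates 1, 2 and 3. A second on ChLG5 from 17223000 to 17223427 had CNS folds of 15.9 and 24.2 beside T3 folds of 4.65, 3.46 and 3.10. Another on ChLG9 from 2382534 to 2383026 had 15.5 and 22.2 beside 3.68, 4.09 and 3.64. In all 3 both CNS values were above every T3 value.

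The member with the highest 0 to 24 h peaks, on ChLG10 from 2324135 to 2324531, fell with embryo age in every list. Its folds were 38.0 and 36.5 at 0 to 24 h, 21.1 and 26.0 at 24 to 48 h, 10.6 and 9.39 at 48 to 72 h, 6.98 and 8.98 in CNS and 3.49, 3.84 and 2.92 in T3. The next, on ChLG2 from 10093203 to 10093705, had 27.5 and 26.3 at 0 to 24 h, 22.8 and 22.2 at 24 to 48 h and 12.5 and 7.63 at 48 to 72 h. Its CNS folds were 10.1 and 15 and its T3 folds 3.41, 3.98 and 3.47. Both were called in all 8 lists outside the epidermis and missed in all 3 T2 lists.

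Members were narrower than the regions shared with T2. Their merged width had a median of 268 bp (134 to 1140 bp), against 410 bp for the shared regions and 458 bp for those in all 6 epidermis lists. It was near the 298 bp of regions in all 3 T3 lists and 1 T2 list and the 275 bp of all merged regions. Among members, merged width was larger where more lists held a peak, with a median of 218 bp in no other list and 496 bp in all 8 embryo and CNS lists. Before merging, the T3 peaks of members were narrower too. Their median widths were 184, 160 and 159 bp in T3 replicates 1, 2 and 3, against 283, 271 and 268 bp for the shared regions. Regions in all 3 T3 lists and 1 T2 list had nearby values of 196, 174 and 176 bp. The part of merging in the width was not tested. The 3 T3 lists placed their summits at the same spot. The summits of a member lay within 100 bp of each other in 433 of 484 (89.5%, against 89.2% of shared regions), with a median spread of 39 bp, and 466 members were a single peak in each T3 list.

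Members were spread over all 10 linkage groups in step with the T3 lists. Their share of the regions in all 3 T3 lists ran from 2.91% on ChLG8 to 4.11% on ChLG1. The nearest region with a T2 peak was a median of 2539 bp away, against 2276 bp for shared regions, and it lay within 500 bp in 75 members (15.5%, against 19.1%). The nearest other member was a median of 94158 bp away, and 47 members (9.71%) had one within 10000 bp. From the shared regions the nearest member was about as far, at a median of 85004 bp, with 9.1% within 10000 bp.

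The most members in 100 kb lay on ChLG2 from 9916954 to 10016953, a stretch chosen after its values were seen. It held 6 members among 19 regions in all 3 T3 lists (31.6%, against 3.76% over all linkage groups). Outside the windows that overlap it, no 100-kb stretch that began at a member held more than 4. The 6 were not alike elsewhere. The member from 9916954 to 9917170 had T3 folds of 6.01, 3.88 and 3.74 and was in no other list. The member from 9924072 to 9924323 had T3 folds of 4.07, 4.23 and 5.32 and a fold of 4.34 in CNS replicate 2. Its embryo folds were 14.9 and 19.2 at 0 to 24 h, 14.6 and 14.6 at 24 to 48 h and 5.48 and 4.81 at 48 to 72 h.

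The other 4 were each in both CNS lists and both 0 to 24 h lists. The member from 9937315 to 9937633 (T3 folds 2.53, 3.25 and 3.48) was in all 8 embryo and CNS lists, with CNS folds of 5.83 and 6.34. The member from 9952859 to 9953093 (T3 folds 3.33, 2.86 and 2.76) was in both CNS lists at 3.57 and 4.15 and in both 0 to 24 h lists. The member from 9976770 to 9977323 had T3 folds of 3.72, 4.4 and 4.78 and CNS folds of 4.73 and 7.26. The member from 10007902 to 10008280 had T3 folds of 4.44, 4.25 and 4.36 and CNS folds of 2.69 and 3.17. These last 2 were also in all 8 lists outside the epidermis.

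The stretch also held 8 regions called in all 6 epidermis lists, which are no members and whose ranks the choice of members did not use. Their mean percentile among the 6727 such regions, ranked by fold within each list, was 46.9, 41.3 and 42.8 in T2 replicates 1, 2 and 3 and 57.9, 61.5 and 60.4 in T3 replicates 1, 2 and 3. The T3 lists were all higher, by 16.3 percentile points on average (43.7 ± 2.91 and 60.0 ± 1.85, SD, n = 3 each, exact two-sided permutation p = 0.1, the smallest possible). Much of this came from 1 region, described next, without which the difference was 7.82 points at the same exact p. Of the 8 regions, 6 had a higher mean rank in T3 (48.2% of all 6727 did). All 3 T3 ranks were above all 3 T2 ranks in 3 regions (5.74% of the 6727) and below them in 1 (6.42%). The stretch was picked, in these same 6 lists, for regions called in T3 and not in T2. Its neighbours are therefore no independent sample, and the p-value gives no independent support.

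One of these regions, singled out after its values were seen, had the largest difference in mean rank between segments among the 6727, in either direction. It spanned 1003 bp on ChLG2 from 9968353 to 9969355 and had folds of 4.08, 3.85 and 3.70 in T2 replicates 1, 2 and 3 and of 10.1, 11.2 and 8.44 in T3 replicates 1, 2 and 3. Every T3 fold was above every T2 fold. Its rank percentiles were 26.4, 10.4 and 8.8 in T2 and 87.9, 95.1 and 89.5 in T3, a difference of 75.6. It was called in both 0 to 24 h lists, with folds of 3.98 and 5.11, and in no older embryo list and no CNS list. It is not a member, because all 3 T2 lists called it.

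A further region of the stretch, on ChLG2 from 9932297 to 9932618, had folds of 4.05, 5.83 and 6.21 in T2 and 7.86, 6.37 and 6.66 in T3, and all T3 ranks were above all T2 ranks. The region from 9975281 to 9975565 went the other way, with folds of 9.90, 11.7 and 10.7 in T2 and 7.84, 8.91 and 7.78 in T3, all T3 values being lower. The regions of the stretch thus did not all differ in the same direction.

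**Figure D4:**
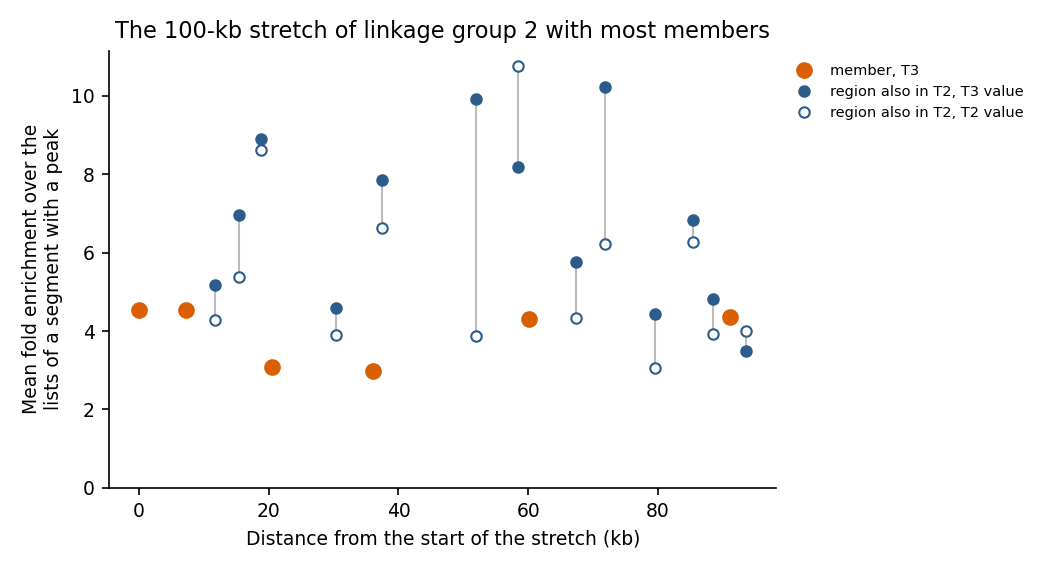
Mean fold in T3 (filled) and T2 (open) at the 19 regions in all 3 T3 lists along the 100-kb stretch of linkage group 2, by distance from its start in kb, with a mean taken over the lists of a segment that hold a peak. Orange points are the 6 members, which have no T2 value. The region near 52 kb has T3 folds of 8.44 to 11.2 and T2 folds of 3.70 to 4.08.

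Which regions counted as members depended on how peaks were counted. Changes in how peaks were merged had little effect: the number was 498 with the 6 epidermis lists merged alone, 466 when peaks up to 100 bp apart were merged and 507 with 200-bp windows on the summits, of which 480, 462 and 480 were members. A −log10 q of at least 2 gave 491 and kept 475. Scaling all epidermis lists to the shallowest gave 299 regions, of which 241 were members (49.8% of the 484). This scaling kept every peak that reached the lowest −log10 p of T2 replicate 1, so it may correct depth only in part. That list called 7.32% of the regions in all 3 T3 lists with an expected −log10 p under 4. Keeping the best 50% of each list gave 272, of which 9 were members, and cutting the lists to 9725 peaks each gave 89, of which 1 was a member, while the opposite class grew to 45. Under both settings nearly all the regions counted were not among the 484. The best 50% removes the weaker peaks of every list, and equal lengths remove them from every list but T2 replicate 1, which holds 9725 peaks as deposited. Leaving out 1 list loosens the rule, and the number was then 501 without T2 replicate 1 and between 908 and 1034 without another list. Without T2 replicate 1 the opposite class held 80 regions.

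**Figure D5:**
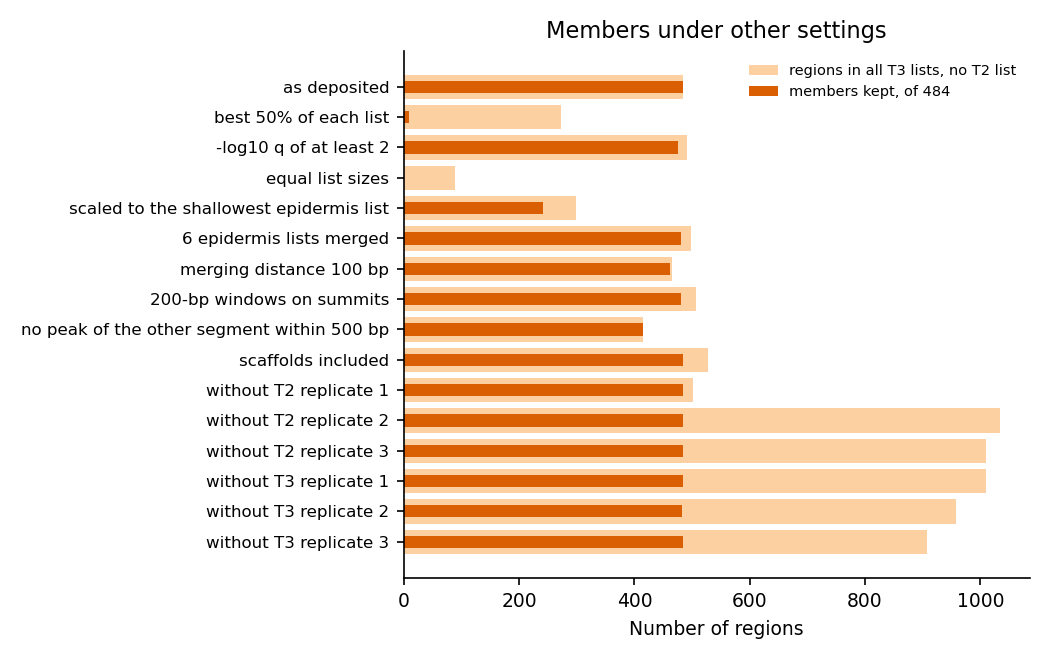
Number of regions that meet the membership rule under each setting (light bars) and how many of the 484 members are among them (dark bars). Scaling to the shallowest epidermis list keeps 241, the best 50% of each list keeps 9 and equal list sizes keep 1.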

How the data were processed

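FAIRE-seq peaks were deposited as 1 narrow-peak list for each of 14 libraries, 323093 peaks in all. Per the submitters' processing notes, the tools were Trimmomatic 0.32, Bowtie2 2.2.3, SAMtools 0.1.12a, deepTools 2.5.2 and MACS2 2.1.1.20160309. The genome build and the control used for peak calling are not given in the sources used here. The deposited fold (a ratio of signal to local background), −log10 p-value and −log10 q-value of each peak are the authors' values, as are the deposited summit offset (another position value) and a deposited score, the whole part of 10 times −log10 q, which was not used. Read totals are unknown. From fold = (pileup + 1) / (background + 1) and the upper Poisson tail, the pileup and background of every peak were solved, and all but 8 pileups were whole within 0.02. The smallest background of a list was taken as its depth. This assumes the same fragment extension in all lists, and the expected −log10 p at another depth uses the p-value alone without the width that the caller requires.

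Lists were merged where they overlapped by 1 bp and kept on 10 linkage groups. Coordinates are printed counting from 1, so starts are 1 above those in the deposited lists. Groups and replicate numbers came from the sample titles. Tests were exact two-sided permutations of lists, and other values are descriptions. Merging, recovery and the count of members were tested on simulated data, and the permutation tests were not. Named regions are the 10 members with the largest value of their smallest T3 fold, the 5 with the largest such value in no other list and the 5 with the smallest −log10 q, and others are said to be chosen after their values were seen. The members, and the rules, tests and alternatives used, were chosen with earlier results of these data known. The alternatives were the best 50% of each list, a −log10 q of at least 2, equal lengths of 9725 peaks, scaling to the shallowest list, other ways of merging, scaffolds, a distance of 500 bp from peaks of the other segment, the replicate block and leaving out each list. Neighbouring genes and motifs, planned for a genome of the build of the lists, were not analysed here. Python 3.11.15, numpy 2.4.6, pandas 2.3.3, scipy 1.17.1 and matplotlib 3.10.9 were used.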

Additional observations from a re-analysis of the deposited data

How the results depend on the processing

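The number of members, 484, was 272 in the best 50% of each list, 89 at equal list sizes and 299 with the lists scaled to the shallowest epidermis list. It lay between 414 (no T2 peak within 500 bp) and 527 (scaffolds included) in the remaining settings with all lists kept, and between 501 and 1034 when 1 list was left out. The opposite class of 1 region held 2, 45 and 3 in the first 3 settings, 15 with 200-bp windows, 0 when peaks within 500 bp counted, and 4 to 80 when 1 list was left out. The difference between CNS and embryo lists of 42.4 points lay between 37.0 and 47.8 when 1 list was left out, with exact permutation p from 0.0476 to 0.143. With the replicate number as a block it had an exact permutation p of 0.0625, the smallest possible; the depth difference of 1.6 then had p = 0.25 and the rank difference in the ChLG2 stretch p = 0.25. The numbers give no pairing by the labels, and the deviations of same-numbered T2 and T3 lists correlated at 0.17, 0.09 and 0.16, each list highest with its own number. The depth difference was 1.97 from the median background (p = 0.2, exact) and 1.02 to 1.93 with 1 list left out. The rank difference of 16.3 was 15.1 to 17.9 then, and 7.82 without the region from 9968353 to 9969355. The number of members in the ChLG2 stretch was 6, with 3 in the best 50%, 0 at equal list sizes, 4 after scaling and 5 to 7 otherwise. The lists give no level where no peak was called, so a missing T2 peak does not mean that opening was absent. The T2 level of a member is unknown, and why its T2 peak was missing was not tested.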
